A study of Mus musculus with 3 samples.

Results

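Mesenchymal cells of cultured mouse embryonic kidneys were compared between explants started at E11.5 and explants started at E12.5. Of 837 kept wells of the series, 343 met the rule for cultured mesenchyme, 205 on the E11.5 cultured plate and 138 on the E12.5 cultured plate. The assay was SORT-seq: each sorted cell fills its own well of a plate of 384, and captured transcripts are counted by molecular identifiers. A well counted as mesenchyme when it had no count of Epcam, Cdh16, Pecam1, Ptprc, C1qa or Sox10, genes of epithelium, endothelium, blood cells and neural crest. It also had under 2 counts of the nephron progenitor genes Six2, Eya1 and Uncx together, at least 1 count of the collagen genes Col1a1 and Col3a1 together, and no more than 3 times the median count of the kept wells of its plate. These genes chose the wells, so their levels are not results.

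The E11.5 cultured cells came from kidneys explanted at E11.5 and cultured for 7 days according to the sample title, or 5 days according to the stage label. The E12.5 cultured cells came from kidneys explanted at E12.5 and cultured for 5 days by both labels. Starting stage and length of culture therefore cannot be told apart. All of these cells carried LGR6-EGFP-IRES-CreERT2/ROSA26-tdTomato on a C57BL/6 background, a knock-in that makes a tamoxifen-dependent Cre under Lgr6 control together with a Cre-dependent reporter. Explants were kept in Dulbecco's medium containing 10% fetal calf serum, dissociated with collagenase and sorted. Whether tamoxifen was given, which cells the sort gate kept and how many embryos were pooled are not given in the sources used here. Uncultured E11.5 kidney cells of C57BL/6 mice with LGR6-EGFP-IRES-CreERT2 alone, sequenced in another run, are given in places beside them and are not compared. There was 1 plate per group and wells are not replicates, so no test was run. Levels are counts per 1000000 nuclear-encoded counts (CPM) over the summed wells, and each interval is an exact 95% interval that covers counting error only.

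Most of the mesenchyme of the developing kidney is stroma, the interstitial cells that lie between nephrons and ducts and later give rise to fibroblasts, pericytes and smooth muscle. Its outer, cortical zone is marked by Foxd1 and its inner, medullary zone by genes such as Penk and Foxl1, while Tbx18 marks the mesenchyme around the ureter. Position along the body axis is written in Hox genes: kidney mesenchyme uses the paralogs of groups 9 to 11, whereas groups 12 and 13 are used by the tissues behind it, the cloaca, the genital tubercle, the lower urinary tract and the tip of the limb bud. Receptors for estrogen and progesterone are used by mesenchyme of the reproductive tract.

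The wells carried mesenchymal genes that the rule had not used. Over 12 mesenchyme markers, leaving out Col1a1 and Col3a1, the summed level was 13545 CPM in E11.5 cultured wells and 11669 CPM in E12.5 cultured wells, and 202 of 205 and 137 of 138 wells had at least 10 counts of them. Col1a2, a collagen chain, stood at 7974 CPM at E11.5 and 6359 CPM at E12.5, in 204 of 205 and 138 of 138 wells, and Vim, an intermediate filament, at 983 and 1109 CPM. Tcf21, a transcription factor of renal stroma, stood at 390 CPM at E11.5 and 328 CPM at E12.5. Counts of other cell types were present too, some of them limited by the rule: nephron progenitor markers summed to 283 CPM at E11.5 and 295 CPM at E12.5, early nephron markers to 439 and 515 CPM, podocyte markers to 457 and 350 CPM, endothelial markers to 158 and 167 CPM, epithelial markers to 54.2 and 33.0 CPM, neural markers to 104 and 44.5 CPM, skeletal muscle markers to 104 and 133 CPM, and coelomic and gonadal markers to 427 and 316 CPM. Single wells carried more of them: at least 10 counts of early nephron markers were found in 16 E11.5 and 23 E12.5 wells, of podocyte markers in 16 and 3, of coelomic and gonadal markers in 15 and 10, of nephron progenitor markers in 9 and 7, and of neural markers in 8 and 1. Their part in the results was not tested. The muscle regulators Myod1, Myog and Myf5 were at 0 on both plates, and so was the gonadal regulator Nr5a1. The label of cultured mesenchyme thus fitted these markers on both plates.

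Depth was close between the plates. The 205 E11.5 cultured wells held 1883654 counts (median 8119 per well, range 1132 to 25636) and the 138 E12.5 cultured wells 1302904 (median 8039, range 1100 to 25750). The median was 3565 genes per well at E11.5 and 3514 at E12.5, and the median mitochondrial share 3.13% and 3.34%. The limit of 1000 counts removed 27 of 327 ordinary wells at E11.5, the deepest with 719 counts, and 126 of 327 at E12.5, the deepest with 917. A single count of Six2, Eya1 or Uncx was allowed in 43 E11.5 and 25 E12.5 wells, and 9 and 8 wells just outside the limit had 2. The 3 E11.5 wells left out as too deep held at least 29897 counts, and the 4 at E12.5 at least 34514. Of 384 well names shared by the plates, 225 had 1000 counts on both, and 0 of these held identical values.

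Plate position mattered on both plates. Xist, the transcript of the inactive X chromosome, stood at 225 CPM in rows A to G of the E11.5 cultured plate and 1163 CPM in rows H to P, and at 323 and 1032 CPM in these row groups of the E12.5 cultured plate. The summed level of the Y-linked genes Ddx3y, Eif2s3y, Kdm5d and Uty showed the opposite step, with 260 CPM in rows A to G and 51.1 CPM in rows H to P at E11.5, and 219 and 38.3 CPM at E12.5. Of the E11.5 wells 110 had Xist counts only, 42 Y-linked counts only and 43 both, and of the E12.5 wells 73, 33 and 25. Each plate thus held transcripts of both sexes, in unequal shares above and below the break between rows G and H. Over whole plates the levels were close, 820 CPM of Xist at E11.5 and 707 CPM at E12.5, and 127 and 121 CPM of the Y-linked genes. Values in both row groups, 80 and 125 wells at E11.5 and 64 and 74 at E12.5, are given for part of the results. A result given without them may differ between the row groups.

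**Figure D1:**
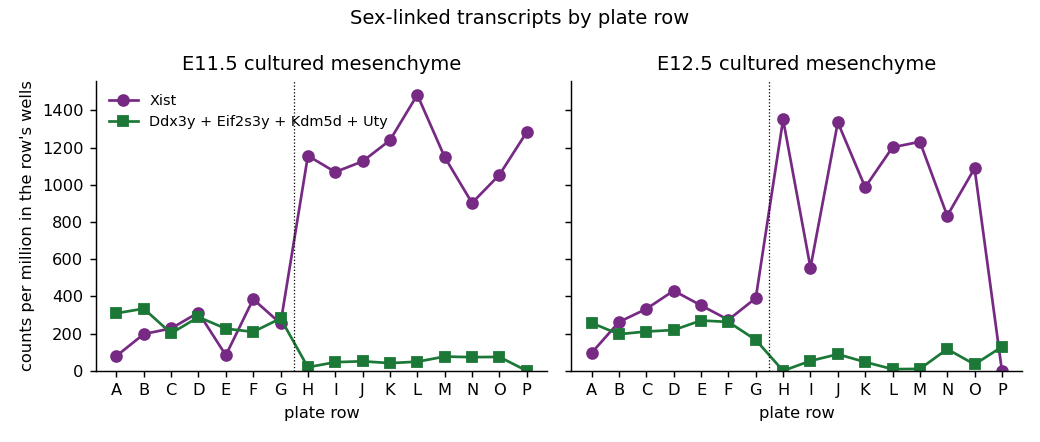
Level of Xist (circles) and of the summed Y-linked genes (squares), in CPM over the mesenchyme wells of each plate row, for E11.5 cultured (left) and E12.5 cultured (right) mesenchyme; the dotted line lies between rows G and H. Each row holds 2 to 19 wells; on both plates Xist is high to the right of the line (rows H to P) and the Y-linked genes are higher to its left, apart from row P of the E12.5 cultured plate, which holds 2 wells.

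Blood transcripts differed between the plates and lay both in mesenchyme wells and in wells of other cell types. The granulocyte genes Elane, S100a8, S100a9 and Mpo stood at 37.2, 30.3, 17.5 and 13.8 CPM at E11.5, in 59, 46, 28 and 24 of 205 wells, and had no count at E12.5, where 0 counts have an exact upper limit of 2.83 CPM and 3 counts would be 2.30 CPM. In 22 E11.5 wells set apart because they had at least 5 counts of the 6 genes of other cell types, with a median of 11251 counts, Elane, S100a8, S100a9 and Mpo were found in 7, 7, 4 and 2. Globin genes showed the opposite: Hbb-y, Hba-a1, Hba-x and Hba-a2 had no count in E11.5 mesenchyme and stood at 66.0, 66.0, 64.5 and 37.6 CPM at E12.5, in 58, 61, 65 and 31 of 138 wells. In 13 E12.5 wells with at least 5 counts of the 6 genes, with a median of 9804 counts, they were found in 4, 8, 8 and 4 wells. Mpo (11.7% of mesenchyme wells and 9.09% of the others) and Hbb-y (42.0% and 30.8%) were found in a larger share of the mesenchyme wells, and the other 6 genes in a smaller one, such as Hba-a1 with 44.2% and 61.5%. These shares rest on few wells of other cell types, and the source of the counts was not tested. The summed level of the 14 macrophage and granulocyte markers was 184 CPM at E11.5 and 43.7 CPM at E12.5, with Ptprc and C1qa at 0 by the rule, and that of the 9 erythroid markers 0 and 241 CPM, with at least 10 erythroid counts in 4 E12.5 mesenchyme wells.

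Of 13261 genes with at least 10 counts over both plates, 946 were at least 2-fold higher in E11.5 cultured mesenchyme (7.13%) and 579 at least 2-fold lower (4.37%), and the median log2 ratio was -0.00. Among the 8998 genes with at least 50 counts, where counting error is smaller, 247 were 2-fold higher (2.75%) and 116 lower (1.29%). Of the 946 higher genes, 770 were on the same side in both row groups and 343 were 2-fold higher in both. Of the 579 lower genes these numbers were 488 and 202. Within rows A to G alone 8% of 11050 measured genes were 2-fold higher and 6.08% lower, and within rows H to P 8.51% and 4.65% of 12030. Most measured genes thus differed by less than 2-fold.

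Hox genes of groups 12 and 13 were higher in E11.5 cultured mesenchyme. Hoxd13, which patterns the genital tubercle and digits, stood at 28.7 CPM (21.5 to 37.4) in E11.5 cultured mesenchyme and 1.54 CPM (0.186 to 5.55) in E12.5 cultured mesenchyme, on 54 and 2 counts, 18.7-fold higher (4.93 to 158). It was found in 30 of 205 E11.5 wells and 2 of 138 E12.5 wells. Hoxa13, which works with it in the cloaca and limb, stood at 20.2 CPM (14.3 to 27.7) at E11.5, in 23 wells, and at 0.768 CPM at E12.5, a single count, a ratio of 26.3 (4.44 to 1065). Hoxd12, the neighbour of Hoxd13, stood at 14.9 CPM (9.88 to 21.5) at E11.5 and 2.30 CPM (0.475 to 6.73) at E12.5, a ratio of 6.46 (1.99 to 33.2). Wells labelled as holding more than 1 cell all lay in rows A to G and were not reduced to mesenchyme. In them Hoxd12 lay the other way, on 8 and 16 counts. No single well made these levels: the richest E11.5 well held 9.26% of the Hoxd13 counts, 15.8% of Hoxa13 and 14.3% of Hoxd12. Hoxd13 was higher at E11.5 in both row groups, with 17.4 CPM at E11.5 and 0 at E12.5 in rows A to G and 35.2 and 2.83 CPM in rows H to P. In the 22 E11.5 wells of other cell types Hoxd13 was found in 1 and Hoxa13 in 0. Uncultured mesenchyme chosen in the same way had 4.41 CPM of Hoxd13 and 5.88 CPM of Hoxa13, but 36.7 CPM of Hoxd12.

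Kidney-level Hox genes did not share this difference. Hoxa11, a gene needed for kidney induction together with its paralogs, stood at 56.8 CPM (46.6 to 68.6) at E11.5 and 112 CPM (94.6 to 132) at E12.5, 1.97-fold lower (1.53 to 2.56). Hoxa10 stood at 191 CPM at E11.5 and 279 CPM at E12.5, 1.46-fold lower (1.26 to 1.70), and Hoxd9 at 67.4 and 107 CPM, 1.59-fold lower (1.24 to 2.04). All 3 were lower at E11.5 in both row groups. Hoxd11 stood at 122 CPM at E11.5 and 155 CPM at E12.5 and Hoxc10 at 148 and 186 CPM, 1.27-fold (1.05 to 1.54) and 1.25-fold (1.05 to 1.49) lower. Hoxd10 (61.6 CPM at E11.5 and 55.3 CPM at E12.5), Hoxa9 (82.3 and 98.2), Hoxc9 (52.6 and 66.0) and Hoxc11 (6.37 and 7.68) had intervals of the ratio that held 1, and so did Hoxb9, at 13.3 and 6.14 CPM. Within the HoxD cluster the ratio therefore changed side between Hoxd12 and its neighbour Hoxd11.

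Of 16 listed genes of groups 9 to 13, 13 were measured: 4 were 2-fold higher at E11.5, among them Hoxb9, and 0 were 2-fold lower, with a median log2 ratio of -0.27. In rows A to G the median was 0.34 and in rows H to P it was -0.51. Over all genes 7.13% were 2-fold higher and 4.37% lower. Of 20 measured genes of groups 1 to 8, 2 were 2-fold higher and 1 was lower, with a median of -0.11. Among them Hoxb2 was 2.501-fold higher (1.33 to 5.04), at 24.95 CPM at E11.5 and 9.98 CPM at E12.5, and Hoxa7 was 2.18-fold lower (1.48 to 3.26), at 23.9 and 52.2 CPM. Hoxb2 lay the other way in wells with more than 1 cell, at 60.3 CPM at E11.5 and 143 CPM at E12.5, and so did Hoxb9, at 25.4 and 77.9 CPM.

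**Figure D2:**
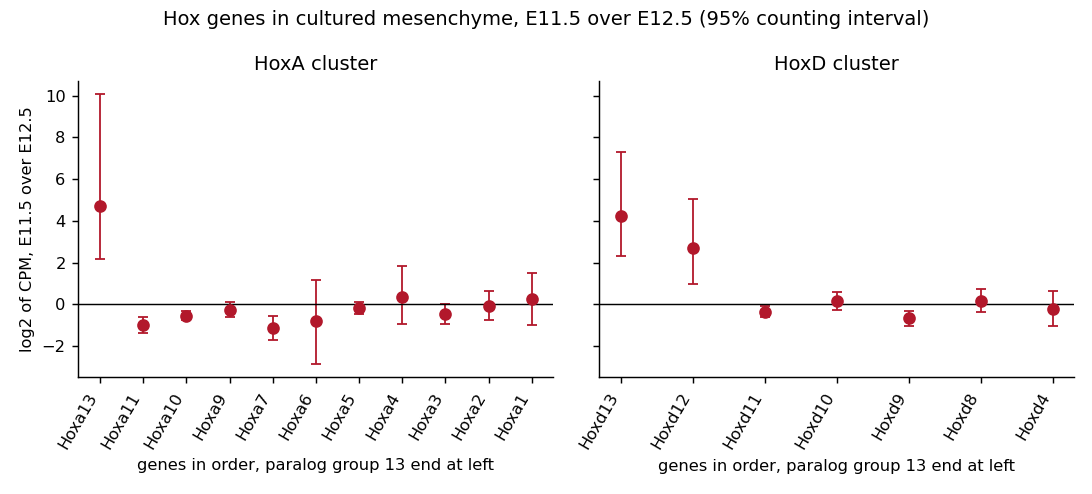
Log2 ratio of CPM, E11.5 over E12.5 cultured mesenchyme, of the measured Hox genes of the HoxA (left) and HoxD (right) clusters, from the highest paralog group on the left of each panel to the lowest; bars are 95% counting intervals. Hoxa13, Hoxd13 and Hoxd12 lie at 4.72, 4.22 and 2.69, whereas Hoxa11 lies at -0.98 and Hoxd11 at -0.34.

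Regulators used by genital and hindlimb mesenchyme were also higher at E11.5. Isl1, a homeobox gene of the genital tubercle and hindlimb, stood at 29.2 CPM (22.0 to 38.0) in E11.5 cultured mesenchyme, in 29 of 205 wells, and had no count in 138 E12.5 wells, an exact upper limit of 2.83 CPM. With 3 counts set as the E12.5 floor the fold was 12.7, and the exact interval of the ratio began at 9.97. The 22 E11.5 wells of other cell types held Isl1 in 3 (13.6%, against 14.1% of mesenchyme wells), at 22.0 CPM, so by the share of wells alone the mesenchyme did not stand above them. Osr2, a zinc finger factor of mesonephric and limb mesenchyme, stood at 114 CPM (98.9 to 130) at E11.5 and 13.05 CPM (7.601 to 20.9) at E12.5, 8.71-fold higher (5.31 to 15.2), in 67 and 12 wells. In rows A to G it stood at 47.8 CPM at E11.5 and 15.1 CPM at E12.5, and in rows H to P at 152 and 11.3 CPM. The 22 E11.5 wells of other cell types held Osr2 in 6, at 25.6 CPM. Its relative Osr1, which marks intermediate mesoderm, stood at 71.7 and 63.7 CPM, with an interval of the ratio from 0.850 to 1.497.

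Twist1, a factor that holds cells in a mesenchymal state, stood at 74.3 CPM at E11.5 and 29.2 CPM at E12.5, 2.55-fold higher (1.77 to 3.75). Msx1, a homeobox gene used in limb and genital tubercle, stood at 24.4 CPM at E11.5 and 9.98 CPM at E12.5, 2.45-fold higher (1.30 to 4.94). Fgf10, a growth factor of bud outgrowth, stood at 15.9 CPM at E11.5 and 5.37 CPM at E12.5, a ratio of 2.96 with an interval that began at 1.28. Pitx1, the hindlimb homeobox gene, and Hand2 had 10 and 13 counts at E11.5 and none at E12.5, with folds of 2.31 and 2.997 against the floor of 3 counts and exact intervals that began at 1.55 and 2.11. Tbx2 stood at 156 CPM at E11.5 and 143 CPM at E12.5 and Gata6 at 136 and 126 CPM, with intervals that held 1. Of 26 listed genes 18 were measured, 8 were 2-fold higher (7.13% of all genes were) and 0 lower, 17 had a ratio above 1, 12 an interval above 1 (10.5% of all genes had one), and the median log2 ratio was 0.58 (0.23 in rows A to G and 1.00 in rows H to P).

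Receptors for ovarian steroids were also higher at E11.5. Esr1, estrogen receptor alpha, stood at 45.1 CPM (36.0 to 55.8) at E11.5 and 10.7 CPM (5.87 to 18.0) at E12.5, 4.20-fold higher (2.37 to 8.01), in 51 and 12 wells. Pgr, the progesterone receptor, stood at 29.7 CPM (22.5 to 38.6) and 6.14 CPM (2.65 to 12.1), 4.84-fold higher (2.30 to 11.8), in 27 and 5 wells. Of the 22 E11.5 wells of other cell types 1 held Esr1 and 0 held Pgr. Both were higher at E11.5 in rows A to G and in rows H to P, where Pgr stood at 31.8 CPM at E11.5 and 1.42 CPM at E12.5. The glucocorticoid receptor gene Nr3c1 stood at 139 CPM at E11.5 and 127 CPM at E12.5, and the orphan receptors of broad mesenchymal use Nr2f1 and Nr2f2 at 441 and 502 CPM and at 1349 and 1605 CPM. Of 10 listed receptor genes 8 were measured, 3 were 2-fold higher and 0 lower, against 7.13% and 4.37% of all genes. Their median was 0.34, with 0.92 in rows A to G and 0.02 in rows H to P.

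Isl1, Hoxd12 and Osr2 were higher in the E11.5 wells that held Hoxa13 or Hoxd13, but not every gene described above was. Wells were set apart by a count of Hoxa13 or Hoxd13, so the following is a description of wells chosen by measured values: 43 E11.5 wells had such a count, 13 of them in rows A to G, with a median of 9458 counts, and 162 had none, with a median of 7917. Isl1 stood at 95.7 CPM (69.8 to 128) in the 43 wells and 7.07 CPM (3.39 to 13.01) in the 162, and Hoxd12 at 42.5 CPM (26.0 to 65.7) and 5.66 CPM (2.44 to 11.2). Osr2 stood at 234 CPM (192 to 282) in wells with and 73.6 CPM (60.1 to 89.2) in wells without. Foxd1, the cortical stroma factor, lay the other way, at 31.9 CPM (17.9 to 52.6) in the 43 wells and 133 CPM (115 to 153) in the 162. Col1a2 stood at 8147 and 7917 CPM, and Tcf21 at 306 and 418 CPM.

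The wells without a Hoxa13 or Hoxd13 count still stood apart from the E12.5 cultured plate in Osr2. The 162 E11.5 wells had 73.6 CPM of Osr2, and the 135 E12.5 wells without such a count, median depth 7927, had 13.5 CPM (7.84 to 21.6). For Foxd1 the order was 133 CPM in these E11.5 wells and 225 CPM in these E12.5 wells. At these depths a well without a count of Hoxa13 or Hoxd13 may still hold their transcripts.

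**Figure D3:**
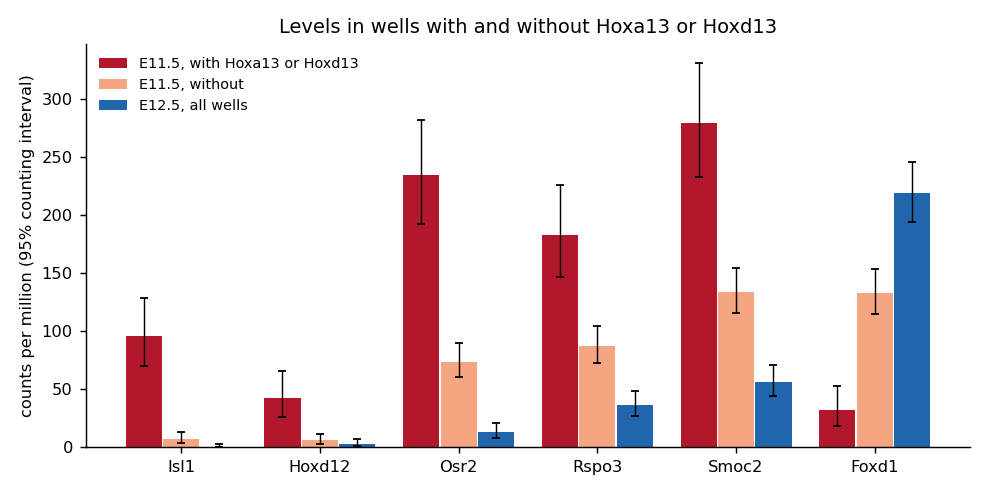
Level in CPM, with 95% counting intervals, of 6 genes in the 43 E11.5 cultured mesenchyme wells with a count of Hoxa13 or Hoxd13 (dark red), the 162 E11.5 wells without one (light orange) and all 138 E12.5 cultured mesenchyme wells (blue). Isl1, Hoxd12, Osr2, Rspo3 and Smoc2 are highest in the first group, and Foxd1 is lowest there.

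Secreted signals were the next group. Inhba and Inhbb encode the subunits of activins, ligands of the TGF-beta family. Inhba stood at 81.8 CPM (69.4 to 95.7) at E11.5 and 11.51 CPM (6.44 to 18.99) at E12.5, 7.10-fold higher (4.17 to 12.997), in 48 and 5 wells, with 60% of the 15 E12.5 counts in 1 well. Inhbb stood at 35.0 CPM (27.1 to 44.6) at E11.5 and 3.07 CPM (0.836 to 7.86) at E12.5, 11.4-fold higher (4.25 to 43.1), in 25 and 4 wells. Gdf10, another ligand of the family, stood at 134 CPM at E11.5 and 55.3 CPM at E12.5, 2.42-fold higher (1.86 to 3.19), and Id4, a target of BMP signals, at 138 and 68.3 CPM, 2.02-fold higher (1.58 to 2.6005).

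Extracellular BMP regulators went in both directions. Nog, the antagonist noggin, stood at 32.4 CPM at E11.5 and 8.44 CPM at E12.5, but this held for rows H to P (46.1 and 4.25 CPM) and not for rows A to G (8.70 and 13.4 CPM). Bmper stood at 24.4 CPM at E11.5 and 63.7 CPM at E12.5, 2.61-fold lower (1.80 to 3.83), and lower in both row groups. Bmp4 stood at 86.0 and 85.2 CPM. Of 28 listed genes 25 were measured, with a median log2 ratio of 0.41. Of these 7 were 2-fold higher and 2 lower, against 7.13% and 4.37% of all genes.

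In the Wnt pathway Rspo3, an R-spondin and thus a ligand of the Lgr receptors, stood at 111 CPM (96.4 to 127) at E11.5 and 36.1 CPM (26.5 to 48.0) at E12.5, 3.08-fold higher (2.23 to 4.32), in 84 and 25 wells. It was higher in rows A to G (103 CPM at E11.5 and 41.9 CPM at E12.5) and in rows H to P (116 and 31.2 CPM). The receptors themselves differed less: Lgr4 stood at 51.5 CPM at E11.5 and 65.2 CPM at E12.5, 1.27-fold lower (0.936 to 1.71), and Lgr6, the gene of the knock-in, at 2.65 CPM (0.862 to 6.19) and 1.54 CPM (0.186 to 5.55), on 5 and 2 counts, a difference that this depth cannot show. Sp5, a Wnt target, had 19 counts at E11.5 (10.1 CPM) and none at E12.5, with a fold of 4.38 against the floor of 3 counts and an exact interval that began at 3.23. Sp5 lay the other way in wells with more than 1 cell, on 2 and 6 counts. Wnt5b stood at 22.8 and 10.7 CPM, with 14.5 and 20.1 CPM in rows A to G and 27.6 and 2.83 CPM in rows H to P, so it changed side between them. Dkk3, of the Dickkopf family of secreted Wnt modulators, stood at 67.4 CPM at E11.5 and 111 CPM at E12.5, 1.65-fold lower (1.29 to 2.11). Of 33 listed genes 24 were measured, with a median of 0.44. Of these 7 were 2-fold higher and 0 lower, against 7.13% and 4.37% of all genes.

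Insulin-like growth factor genes had a median of 0.53 over 13 of 14 listed. In this list 2 were at least 2-fold higher (7.13% of all genes were) and 0 lower. Igf1, the growth factor, stood at 704 CPM (667 to 743) at E11.5 and 379 CPM (346 to 414) at E12.5, 1.86-fold higher (1.67 to 2.06), in 131 and 59 wells. Of the proteins that bind it, Igfbp5 stood at 2170 and 1295 CPM, 1.68-fold higher (1.58 to 1.77), and Igfbp6 at 30.3 and 13.8 CPM, 2.19-fold higher (1.27 to 3.95), though in wells with more than 1 cell Igfbp6 stood at 9.52 CPM at E11.5 and 49.9 CPM at E12.5. Igfbp7 stood at 557 CPM at E11.5 and 956 CPM at E12.5, 1.72-fold lower (1.58 to 1.86), and Igfbp2 at 310 and 401 CPM, 1.29-fold lower (1.15 to 1.46).

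Hedgehog and Fgf pathway genes differed in both directions. Cdon and Gas1, co-receptors for Hedgehog ligands, stood at 57.9 CPM at E11.5 and 20.0 CPM at E12.5 and at 858 CPM at E11.5 and 418 CPM at E12.5, 2.90-fold (1.88 to 4.64) and 2.05-fold (1.86 to 2.27) higher, while the third co-receptor, Boc, was 1.34-fold lower (1.08 to 1.65) at 99.8 and 134 CPM. Gas1 lay the other way in wells with more than 1 cell, at 647 CPM at E11.5 and 812 CPM at E12.5. The targets Gli1 (107 CPM at E11.5 and 125 CPM at E12.5) and Ptch1 (162 and 190 CPM) had intervals of the ratio that held 1. Over the 10 listed Hedgehog genes, all measured, 2 were 2-fold higher (7.13% of all genes were) and 0 lower, with a median of 0.07. Spry1 and Spry4, feedback inhibitors of receptor tyrosine kinases, stood at 228 CPM at E11.5 and 122 CPM at E12.5 (1.87-fold higher, 1.56 to 2.26) and at 59.99 and 27.6 CPM (2.17-fold higher, 1.48 to 3.25). Gfra2, a receptor for Gdnf-related ligands, stood at 64.8 and 131 CPM, 2.03-fold lower (1.60 to 2.58), but higher at E11.5 in wells with more than 1 cell, at 81.1 and 46.7 CPM. Of 17 listed Gdnf and Fgf genes 14 were measured, with a median of 0.33. Of these 3 were 2-fold higher and 1 lower, against 7.13% and 4.37% of all genes.

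**Figure D4:**
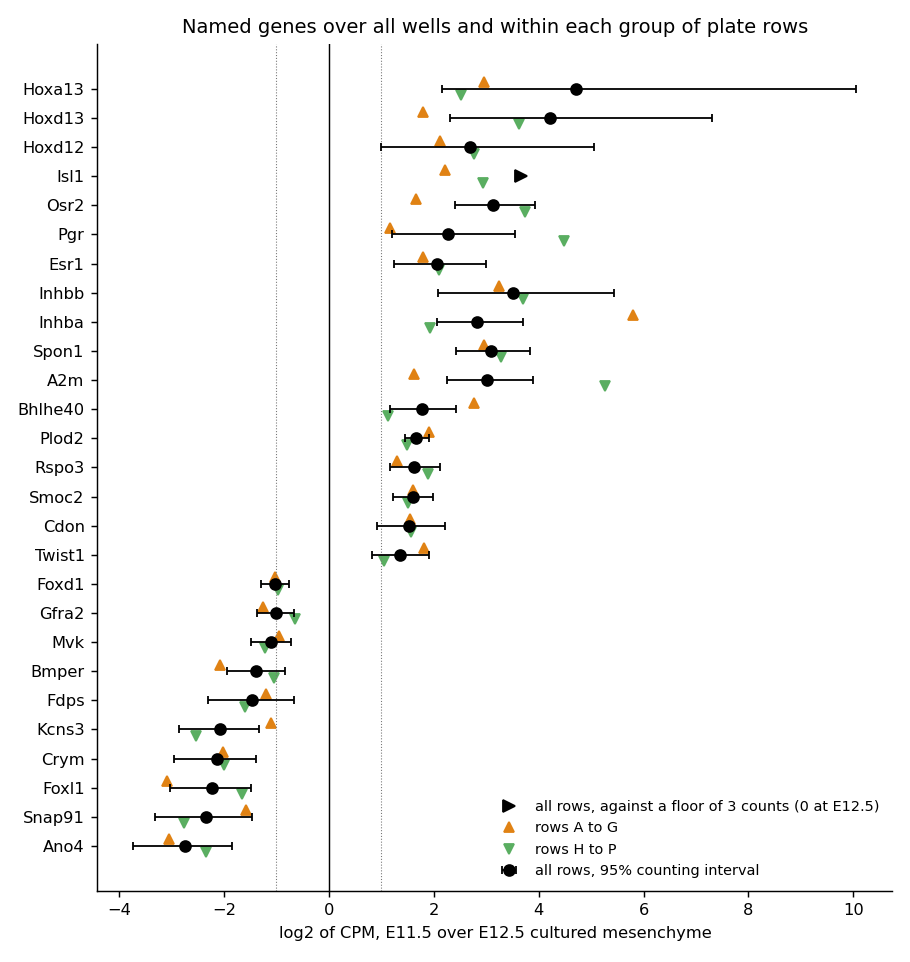
Log2 ratio of CPM, E11.5 over E12.5 cultured mesenchyme, of 27 genes over all wells (black, with 95% counting intervals; the black triangle is Isl1 against a floor of 3 counts, as it had no count at E12.5) and within rows A to G (orange) and rows H to P (green); dotted lines mark a 2-fold difference. Where a row group had no count at E12.5, as for Hoxd13 in rows A to G, its marker is set against that floor too. All 27 genes keep their side in both row groups, but they were picked for display. Genes that change side between the row groups, such as Nog, Wnt5b, Myh11, Actg2 and Car3, are not shown.

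Markers of the renal stroma zones differed in both directions, and Foxd1 was lower at E11.5. Foxd1, the factor that defines the cortical stroma, stood at 108 CPM (93.5 to 124) at E11.5 and 219 CPM (194 to 246) at E12.5, 2.03-fold lower (1.69 to 2.44), in 73 and 69 wells. It was lower in rows A to G (120 CPM at E11.5 and 244 CPM at E12.5) and in rows H to P (101 and 197 CPM). In wells with more than 1 cell it lay the other way, at 369 CPM at E11.5 and 88.8 CPM at E12.5. Cxcl12, a chemokine of the stroma, stood at 371 CPM at E11.5 and 553 CPM at E12.5, 1.49-fold lower (1.34 to 1.66), and Dlk1, a fetal growth regulator, at 1491 and 950 CPM, 1.57-fold higher (1.47 to 1.68). The 15 cortical stroma genes had a median of 0.05, with 0 at least 2-fold higher and 1 lower (4.37% of all genes were). Foxd1 thus did not stand for its list.

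Among medullary stroma genes Foxl1, a forkhead factor of the inner stroma, stood at 10.6 CPM (6.49 to 16.4) at E11.5 and 49.9 CPM (38.5 to 63.6) at E12.5, 4.70-fold lower (2.81 to 8.19), in 16 and 35 wells. Cldn11, a claudin, stood at 261 and 454 CPM, 1.74-fold lower (1.54 to 1.96), and Penk, the opioid precursor, at 1230 and 1779 CPM, 1.45-fold lower (1.36 to 1.53). Lox, the enzyme that crosslinks collagen, stood at 432 CPM at E11.5 and 218 CPM at E12.5, 1.98-fold higher (1.73 to 2.28), and Wnt11 at 24.4 and 11.51 CPM. Of the 13 genes 1 was 2-fold higher and 2 were lower, against 7.13% and 4.37% of all genes, with a median of -0.46. Foxl1, like Foxd1, was higher at E11.5 in wells with more than 1 cell, at 30.1 CPM against 15.6 CPM at E12.5.

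For mesenchyme around the ureter Tbx18 stood at 75.4 CPM at E11.5 and 134 CPM at E12.5, 1.77-fold lower (1.41 to 2.23), whereas Smoc2, a matrix protein that modulates growth factor signals, stood at 170 CPM (152 to 190) and 56.0 CPM (43.9 to 70.4), 3.03-fold higher (2.34 to 3.97), in 68 and 32 wells. The list of genes of this mesenchyme had a median of 0.01, with 0.17 in rows A to G and -0.15 in rows H to P. Against 7.13% and 4.37% of all genes, 2 of 9 measured genes of that list were 2-fold higher and 1 lower. The last of these, Car3, stood at 24.4 and 60.02 CPM, but 47.6% of its E12.5 counts lay in 1 well and it changed side between the row groups.

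Contractile genes of smooth muscle depended on the plate rows. Over all wells Myh11, smooth muscle myosin, stood at 52.2 CPM at E11.5 and 115 CPM at E12.5, 2.19-fold lower (1.69 to 2.87), and Actg2, smooth muscle actin of the gut and urinary tract, at 39.4 and 97.0 CPM, 2.46-fold lower (1.83 to 3.33). In rows A to G Myh11 stood at 14.5 CPM at E11.5 and 181 CPM at E12.5, but in rows H to P at 74.0 and 58.1 CPM. Actg2 did the same, with 18.8 and 176 CPM in rows A to G and 51.3 and 29.8 CPM in rows H to P. Single wells weighed on these levels, with 43.9% of the E11.5 counts of Myh11 and 46.0% of those of Actg2 in 1 well. Myl9, a myosin light chain, was lower in both row groups, at 241 CPM at E11.5 and 514 CPM at E12.5 over all wells. In wells with more than 1 cell Myh11, Actg2 and Myl9 were higher at E11.5, Myl9 at 242 CPM against 85.7 CPM at E12.5. Acta2 stood at 557 and 915 CPM and Tagln at 306 and 232 CPM. Of the 16 genes 0 were 2-fold higher and 4 were lower (4.37% of all genes were). The median of the list was -0.47, with -0.73 in rows A to G and 0.13 in rows H to P.

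Fibrillar matrix genes differed by less than 2-fold, with 1 exception. Over 29 genes of the fibrillar matrix the median was 0.28 (0.03 in rows A to G and 0.47 in rows H to P), 22 had a ratio above 1, 0 were 2-fold higher and 1 was lower. An interval above 1 was found for 18 of them and below 1 for 6, against 10.5% and 10.9% of all genes. That gene was Eln, elastin, at 370 CPM at E11.5 and 900 CPM at E12.5; 66.0% of its E12.5 counts lay in 1 well, and without the richest well of each plate the ratio was 1.03. Postn, periostin, stood at 477 CPM at E11.5 and 301 CPM at E12.5, 1.59-fold higher (1.41 to 1.79), and Fbln5, which organises elastic fibres, at 176 and 306 CPM, 1.73-fold lower (1.49 to 2.01). Of the basement membrane genes Col4a5 stood at 28.1 and 9.21 CPM, 3.05-fold higher (1.61 to 6.28), and Col4a1 at 577 and 860 CPM, 1.49-fold lower (1.37 to 1.62), with a median of -0.10 over 16 genes. The renin gene Ren1 stood at 152 CPM at E11.5 and 5.37 CPM at E12.5, but 96.5% of the E11.5 counts lay in 1 well.

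Genes of the response to low oxygen were higher at E11.5. Their common regulators, the hypoxia-inducible factors, are transcription factors that bind a core of the letters RCGTG in DNA when oxygen is scarce, and their targets take up glucose, modify collagen and call for vessels. All 20 listed genes were measured and all 20 had a ratio above 1, 15 of them with an interval above 1; 4 were 2-fold higher and 0 lower, with a median of 0.61. Over all genes 10.5% had an interval above 1 and 7.13% were 2-fold higher. The median was 0.79 in rows A to G and 0.39 in rows H to P. Plod2, a collagen lysyl hydroxylase, stood at 469 CPM (438 to 501) at E11.5 and 147 CPM (127 to 170) at E12.5, 3.18-fold higher (2.72 to 3.74), in 171 and 83 wells. Bhlhe40, a transcriptional repressor, stood at 70.6 and 20.7 CPM, 3.41-fold higher (2.24 to 5.36), and Ero1l, an oxidase of the endoplasmic reticulum, at 157 and 59.9 CPM, 2.62-fold higher (2.03 to 3.402). Slc2a3 and Slc2a1, glucose transporters, stood at 118 CPM at E11.5 and 56.8 CPM at E12.5 (2.08-fold higher, 1.60 to 2.75) and at 193 and 122 CPM (1.58-fold higher, 1.31 to 1.91). Vegfa, the vascular growth factor, stood at 547 and 342 CPM, 1.60-fold higher (1.43 to 1.80), and Bnip3, a mitochondrial protein of mitophagy, at 425 and 315 CPM, 1.35-fold higher (1.19 to 1.52). Ddit4, an inhibitor of mTOR, stood at 165 and 137 CPM, 1.21-fold higher (1.00 to 1.46), and at 176 CPM on both plates in rows H to P.

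The promoters of these genes were searched for the letters ACGTG on either strand in the 250 bases before the start. RefSeq promoter sequences of the build GRCm38.p6 were used. The letters were found in 11 of the 16 hypoxia promoters that could be matched (68.8%) and in 4477 of all 27025 promoters (16.6%). Ero1l was among the 11, but Plod2, Bhlhe40, Slc2a3 and Vegfa were not. As only 16 of the 20 listed genes had a matched promoter, a gene outside the 11 may not have been searched. The other form of the core, GCGTG, was not searched in any promoter. A gene outside the 11 is therefore not shown to lack the core. The list was drawn up from genes of the response to low oxygen, so this share describes the list. The cause of their levels here was not tested. A match of 5 letters is a description of the sequence and does not show that a factor binds there. Windows of 60 bases are shown for 4 genes whose levels are given above, 5′ to 3′ on the strand of the gene, with ACGTG or its reverse complement CACGT in capitals; in Bnip3 both overlap as CACGTG. The windows lie at chr4:119108681-119108740 on the plus strand for Slc2a1, and on the minus strand at chr7:138909582-138909641 for Bnip3, chr10:59951926-59951985 for Ddit4 and chr14:45318604-45318663 for Ero1l, which RefSeq calls Ero1a. The matches start 36, 108, 187 and 63 bases before the gene's start.
Slc2a1: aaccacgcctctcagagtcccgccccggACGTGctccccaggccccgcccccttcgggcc
Bnip3: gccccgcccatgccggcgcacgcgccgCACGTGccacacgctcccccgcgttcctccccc
Ddit4: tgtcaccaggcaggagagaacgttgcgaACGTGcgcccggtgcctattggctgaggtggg
Ero1l: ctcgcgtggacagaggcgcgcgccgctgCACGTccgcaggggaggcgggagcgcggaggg

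Glycolysis genes, which the same factors can induce, were less uniform. Hk2, the inducible hexokinase, stood at 144 CPM at E11.5 and 64.5 CPM at E12.5, 2.23-fold higher (1.74 to 2.89), and Pfkp, a phosphofructokinase, at 43.0 and 20.7 CPM, 2.08-fold higher (1.33 to 3.34). Eno1 was 1.27-fold lower (1.17 to 1.38), at 668 and 848 CPM, and Pgam1 1.53-fold lower (1.03 to 2.27), at 28.1 and 43.0 CPM. Of 17 genes 2 were 2-fold higher (7.13% of all genes were) and 0 lower. The median of the list was 0.24, with 0.37 in rows A to G and -0.04 in rows H to P. Nuclear genes of the respiratory chain had a ratio below 1 in 22 of 23 cases, none by 2-fold, with a median of -0.25. Over all 13261 measured genes 6638 had a ratio below 1.

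Cholesterol synthesis genes were lower together by small amounts. Of 18 listed genes 17 were measured, 17 had a ratio below 1 and 13 of these an interval below 1, against 10.9% of all genes; 2 were 2-fold lower and 0 higher, with a median of -0.49 (-0.39 in rows A to G and -0.53 in rows H to P). Mvk, mevalonate kinase, stood at 51.5 CPM (41.8 to 62.8) at E11.5 and 111 CPM (93.2 to 130) at E12.5, 2.15-fold lower (1.65 to 2.81). Fdps, farnesyl diphosphate synthase, stood at 11.1 and 30.7 CPM, 2.75-fold lower (1.59 to 4.92). Msmo1, a methyl sterol oxidase, was 1.74-fold lower (1.47 to 2.05), at 142 and 246 CPM, and Hmgcs1, an enzyme at the entry of the pathway, 1.32-fold lower (1.16 to 1.505), at 255 and 336 CPM. The sterol element TCACNCCAC, searched in the same way, was found in 1 of the 12 promoters of this list that could be matched, that of Hmgcs1, and in 280 of 27025 promoters (1.04%). In Hmgcs1 it lies 137 bases before the start, in the window chr13:119690186-119690245 on the plus strand, shown with the match in capitals as the only such match in the list.
Hmgcs1: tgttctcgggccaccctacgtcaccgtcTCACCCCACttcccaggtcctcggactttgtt

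**Figure D5:**
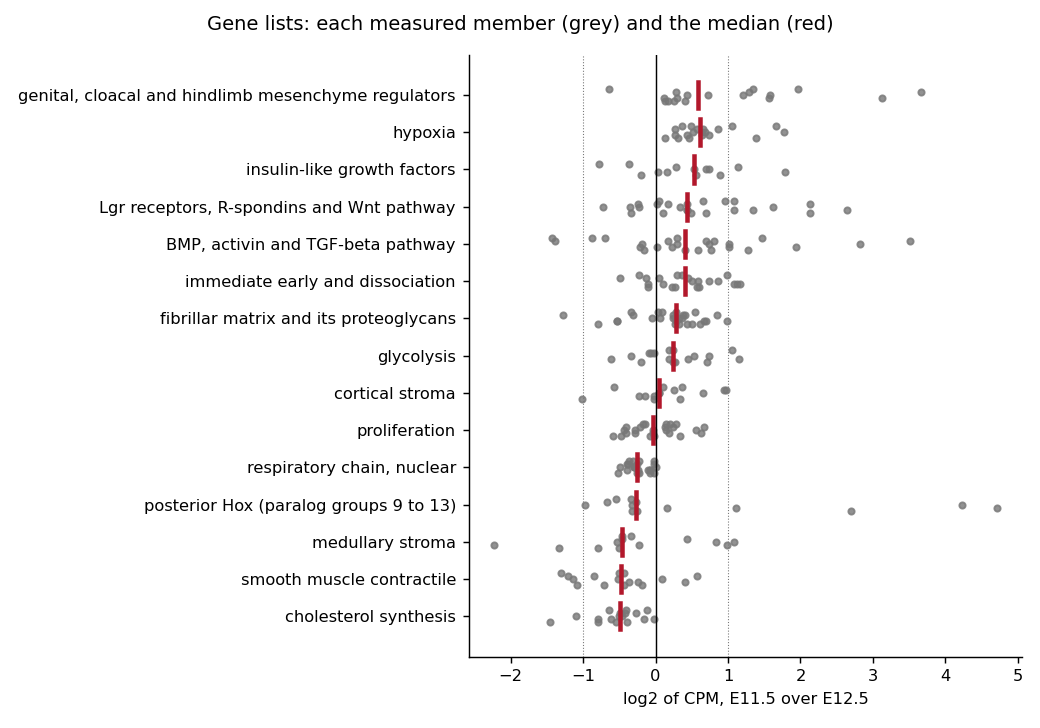
Log2 ratio of CPM, E11.5 over E12.5 cultured mesenchyme, of each measured member (grey points) of 15 gene lists, with the median in red; dotted lines mark a 2-fold difference, and the median over all genes was -0.00. The hypoxia list lies wholly above 0 with a median of 0.61 and the cholesterol list wholly below it with a median of -0.49, while the posterior Hox list has a median of -0.27 and 3 genes far to the right.

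Stress and early response genes were unevenly higher at E11.5. Nr4a1, an immediate early nuclear receptor, stood at 594 CPM at E11.5 and 266 CPM at E12.5, 2.24-fold higher (1.98 to 2.53), Zfp36, which destabilises messenger RNA, at 433 and 198 CPM, 2.19-fold higher (1.90 to 2.52), and the heat-shock gene Hspa1a at 42.5 and 20.0 CPM, 2.13-fold higher (1.35 to 3.45). Ier2 of the same list was 1.40-fold lower (1.28 to 1.53), at 507 and 709 CPM. Of 23 listed genes 22 were measured, 3 were 2-fold higher and 0 lower, with a median of 0.41. Cebpb, a transcription factor of stress and inflammation, stood at 158 CPM (141 to 177) at E11.5 and 41.4 CPM (31.1 to 54.1) at E12.5, 3.82-fold higher (2.85 to 5.20), in 118 and 38 wells. Aldh1l2, a mitochondrial enzyme of folate metabolism, stood at 119 and 42.2 CPM, 2.82-fold higher (2.09 to 3.86). The 22 genes of the stress response and serine synthesis list had a median of 0.21, with 2 at least 2-fold higher and 0 lower. For both lists the share over all genes was 7.13% higher and 4.37% lower. Cyr61, a matricellular target of YAP, stood at 629 CPM (594 to 667) at E11.5 and 213 CPM (188 to 239) at E12.5, 2.96-fold higher (2.596 to 3.39), whereas the YAP target Ajuba stood at 36.1 and 38.4 CPM.

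Cell cycle genes differed by less than 2-fold, in both directions. Mki67, a marker of cycling cells, stood at 224 CPM at E11.5 and 178 CPM at E12.5, in 54 of 205 and 39 of 138 wells, Top2a, a topoisomerase, at 289 and 255 CPM, and Rrm2 at 87.6 and 122 CPM. Of 25 proliferation genes 0 were 2-fold higher and 0 lower, with a median of -0.04. An interval above 1 was found for 3 of them and below 1 for 5, against 10.5% and 10.9% of all genes. Hmga2, which shapes chromatin in embryonic cells, stood at 92.9 CPM at E11.5 and 81.4 CPM at E12.5, and at 1562 CPM in uncultured mesenchyme. The cell cycle inhibitor Cdkn1c stood at 1898 and 2617 CPM, 1.38-fold lower (1.32 to 1.45).

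Among all genes ranked by the interval limit nearest to no difference, further genes higher at E11.5 included Spon1, a matrix protein, at 131 CPM (115 to 148) at E11.5 and 15.4 CPM (9.38 to 23.7) at E12.5, 8.51-fold higher (5.39 to 14.2), in 51 and 11 wells. A2m, a protease inhibitor, stood at 93.5 and 11.51 CPM, 8.12-fold higher (4.79 to 14.8), with 60% of the 15 E12.5 counts in 1 well. Jph4, a junctophilin, stood at 24.95 CPM at E11.5 and 0.768 CPM at E12.5, on 47 counts and 1 count, a ratio of 32.5 (5.56 to 1311); in wells with more than 1 cell it lay the other way, on 2 and 6 counts. Sprr1a, a stress-induced protein, had 15.9 CPM at E11.5 and no count at E12.5, with a fold of 6.92 against the floor of 3 counts and an exact interval that began at 5.29. Genes lower at E11.5 included Ano4, a membrane protein of the anoctamin family, at 6.90 CPM at E11.5 and 46.1 CPM at E12.5, 6.67-fold lower (3.62 to 13.3), Snap91, a clathrin adaptor, at 7.43 and 37.6 CPM, 5.06-fold lower (2.75 to 9.92), and Bace2, a protease, at 13.3 and 56.0 CPM, 4.22-fold lower (2.65 to 6.94). Crym, a thyroid hormone-binding protein also listed as a nephron progenitor marker, stood at 10.6 and 46.8 CPM, 4.41-fold lower (2.62 to 7.72), and Kcns3, a potassium channel subunit, at 11.1 and 46.8 CPM, 4.20-fold lower (2.52 to 7.26). All 5 were lower in both row groups, but Ano4 and Bace2 lay the other way in wells with more than 1 cell.

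Wells labelled as holding more than 1 cell, 36 at E11.5 and 38 at E12.5 with at least 1000 counts, were compared in the same way. They held all cell types and all lay in rows A to G. Their levels thus also carry the makeup of the plate and of these rows. Of 11529 genes measured there, 10.2% were at least 2-fold higher at E11.5 and 12.2% lower. Of the 946 genes 2-fold higher in mesenchyme 533 were measured in them and 147 were 2-fold higher, and of the 579 lower genes 291 were measured and 100 were 2-fold lower. Esr1 stood at 20.6 CPM at E11.5 and 3.12 CPM at E12.5 in these wells, Isl1 at 12.7 and 0 CPM, and Plod2 at 370 and 71.7 CPM, on the same side as in mesenchyme. Osr2, at 73.0 and 49.9 CPM, was nearer to equal, Hoxd13 and Hoxa13 had too few counts to place (4.76 and 6.34 CPM at E11.5 and 0 at E12.5), and Hoxd12 lay the other way, at 12.7 CPM at E11.5 and 24.9 CPM at E12.5. Several genes that were lower in E11.5 mesenchyme by less than 2-fold were higher at E11.5 in these wells: Hoxa11, Tbx18, Dkk3, Acta2, Cldn11, Cxcl12, Fbln5, Igfbp7, Penk and Cdkn1c.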

How the data were processed

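Per the labels, sorted single cells were sequenced by SORT-seq. Per the submitters' processing notes, STAR 2.6.1a, featureCounts 1.5.2 and GRCm38.p5 were used; their settings are not stated there. The authors deposited expected counts for each gene in each well, that is identifier counts corrected for 4096 possible identifiers, which every value above 0 on both plates matched within 0.1. They were used as deposited and rounded for intervals and thinning only. The counts that no known well could claim (4.26% at E11.5 and 4.27% at E12.5) was left out.

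Kept wells had at least 1000 nuclear-encoded counts and at most 30% mitochondrial counts; on each plate 15 control wells were left out and 42 wells given more than 1 cell were set apart. No doublet caller was run. CPM of summed counts carry exact Poisson intervals, ratios exact binomial (Clopper-Pearson) intervals and shares of wells exact binomial intervals, all at 95%. A gene counted as measured with at least 10 counts over both plates. Where a plate had 0 counts, 3 counts in its sum were taken as the floor for the fold, given with the smaller exact lower limit of the ratio. PCR and capture error are outside these intervals.

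Genes were named by rule: all measured posterior Hox and sex-linked genes; in each list described, up to 2 members each way with at least 50 counts; and the 15 highest and 15 lowest by interval limit among genes in at least 10% of wells with at most 25% of counts in 1 well. Others were chosen after their values were seen: Esr1, Nr3c1, Msx1, Fgf10, Pitx1, Hand2, Gdf10, Id4, Nog, Sp5, Lgr4, Lgr6, Igfbp5, Gli1, Ptch1, Penk, Acta2, Myh11, Myl9, Ero1l, Slc2a1, Slc2a3, Vegfa, Bnip3, Ddit4, Msmo1, Hmgcs1, Hspa1a, Mki67, Top2a, Col1a2, Vim, Tcf21 and Postn. Some genes that these rules name are not reported here. The wells, the 43 gene lists and the comparison were chosen with earlier results of these data known. Whole counts had been assumed in planning; as no count model was fitted, the comparison was unchanged. The interval and ratio code was tested on simulated data. Tools were python 3.11.15, numpy 2.4.6, pandas 2.3.3, scipy 1.17.1 and matplotlib 3.10.9.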

Additional observations from a re-analysis of the deposited data

Results flagged for a closer look

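The lineage reporter tdTomato is outside the comparison of mouse genes. It was higher in wells labelled as holding more than 1 cell than in mesenchyme wells. In the 36 wells with more than 1 cell of the E11.5 cultured plate it stood at 523 CPM, in 26 of them. In the 38 of the E12.5 cultured plate it stood at 463 CPM, in 33 wells. The 15 control wells of each plate held 0 counts at E11.5 and 1 count at E12.5. Their median depth was only 150 counts at E11.5 and 129 at E12.5, too shallow for a level to be compared. In mesenchyme wells it stood at 65.3 CPM at E11.5 and 86.7 CPM at E12.5, in 83 and 64 wells. These sets are unlike, as wells with more than 1 cell held all cell types and lay in rows A to G. Mesenchyme wells were chosen by their genes and lay in rows A to P. The cause of the difference was not tested, and the sort gate of all these wells is unknown here.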

How the results depend on the processing

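No paired analysis was possible because each group was 1 plate, and no count model could be fitted. With a minimum of 50 counts per gene 247 of 8998 genes were 2-fold higher and 116 lower, and with no minimum 1593 and 1389 of 21991. In wells with more than 1 cell 1174 of 11529 were higher and 1407 lower. Under the other settings the counts lay between 696 and 1223 (higher) and 459 and 688 (lower). The number of measured genes changed with the setting, so these counts are not shares. The 696 were of 6872 genes after thinning, a larger share than the 946 of 13261 in the main comparison. Of 89 genes chosen for naming and past 2-fold, 87 stayed so with the deepest wells kept, 82 with every well weighted equally, 56 of 79 with a value after thinning, 88 with at least 3000 counts per well, 89 with at most 10% mitochondrial counts, 89 with at least 5 collagen counts, 88 with median-ratio scaling (a shift of -0.02), 69 without the mesenchyme rule, 73 of 87 within rows A to G, 69 within rows H to P (a split chosen after seeing the data), 85 without each gene's richest well and 41 of 85 in wells with more than 1 cell. The log2 ratio changed sign for Car3 after thinning (0.24) and for Hoxb9 without the mesenchyme rule (-0.12). Within rows A to G it did so for Car3 (0.52), Cebpa (-0.070), Nog (-0.62), Ren1 (-1.01) and Wnt5b (-0.47), within rows H to P for Actg2 (0.78) and Myh11 (0.35), and without the richest well for Eln (0.042). In wells with more than 1 cell it did so for Actg2 (0.74), Alpl (2.03), Ano4 (2.35), Bace2 (2.25), Car3 (2.23), Cnn1 (1.90), Eln (0.51), Foxd1 (2.05), Foxl1 (0.95), Gas1 (-0.33), Gfra2 (0.79), Hoxb2 (-1.25), Hoxb9 (-1.62), Hoxd12 (-0.97), Igfbp6 (-2.39), Jph4 (-1.56), Kdr (-0.56), Mycn (-0.51), Myh11 (2.22), Myl9 (1.497), Nog (-0.13), Sp5 (-1.56), Spock2 (-0.54) and Stmn2 (-0.13), and for the median of the macrophage and granulocyte markers (-0.82). These wells hold other cell types and all lie in rows A to G. The cause of each change was not tested. With 1 plate per group, differences between embryos, dissections or plates cannot be told apart from stage or culture length, and at 2.30 CPM for 3 counts at E12.5 low genes could not be placed.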

Other observations

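Several features named as predicted genes or pseudogenes differed by large ratios. Gm10036 stood at 127 CPM at E11.5, in 118 of 205 wells, and 2.30 CPM at E12.5, on 3 counts, a ratio of 55.1 (18.6 to 269), and Gm2445 at 51.0 and 2.30 CPM, a ratio of 22.1 (7.35 to 109). In the other direction Nudc-ps1 stood at 3.19 and 39.1 CPM, Gm28661 at 13.3 and 89.0 CPM, Gm5262 at 1.59 and 24.6 CPM, and Gm15459 at 0 and 20.7 CPM. All 6 lay on the same side in wells with more than 1 cell. Features of this kind share reads with near-identical copies, the plates' tables list different sets of merged features (250 at E11.5 and 243 at E12.5), and their values are uncertain; the part of counting in these differences was not tested.

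Interferon, fat and bone genes, from lists not described above, differed in both directions. H2-K1, an MHC class I chain, stood at 34.0 CPM at E11.5 and 13.8 CPM at E12.5, 2.46-fold higher (1.44 to 4.41), while Rtp4, an interferon-induced protein, stood at 2.12 and 23.0 CPM, 10.8-fold lower (3.82 to 42.4), in 4 and 16 wells. Of 12 measured interferon and class I genes 2 were 2-fold higher and 2 lower, with a median of -0.28. Lpl, lipoprotein lipase, stood at 116 CPM at E11.5 and 62.9 CPM at E12.5, 1.85-fold higher (1.43 to 2.41). Of 10 listed adipogenic genes 6 were measured, 2 were 2-fold higher and 0 lower. Their median was 0.26, with 0.03 in rows A to G and -0.17 in rows H to P. Of the bone genes, Alpl, alkaline phosphatase, stood at 16.5 and 45.3 CPM, 2.75-fold lower (1.75 to 4.40), and Runx2, the osteoblast factor, at 23.4 and 11.51 CPM, 2.03-fold higher (1.11 to 3.93). In wells with more than 1 cell Alpl lay the other way, on 12 and 3 counts. Of 17 listed cartilage and bone genes 11 were measured, 2 were 2-fold higher and 2 lower, with a median of -0.05. That median changed side between the row groups, with -0.53 in rows A to G and 0.51 in rows H to P. For these 3 lists too, the share over all genes was 7.13% higher and 4.37% lower. The sequences EGFP_IRES_Cre and NeoR of the knock-in stood at 32.9 CPM at E11.5 and 47.6 CPM at E12.5 and at 90.3 and 69.8 CPM in mesenchyme.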
